A study of Mus musculus with 6 samples.

Results

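The kinesin genes of primary mouse embryonic fibroblasts (MEFs) were compared between cultures treated for 24 h with 3 µM erastin and cultures given the solvent DMSO. Members were the rows of the deposited count table whose Ensembl identifier has a protein-coding GENCODE M21 symbol beginning with Kif and continuing with a digit or the letter C. Mouse symbols write that letter in lower case, so case was ignored, which gave 43 genes of 43346 rows. With the capital letter alone there were 39, without Kifc1, Kifc2, Kifc3 and Kifc5b. Of the 43 genes, 42 encode kinesins, and Kif1bp, matched by its symbol, encodes a kinesin-binding protein that has no motor domain.

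Both groups were C57BL/6 MEFs at passage 9, fibroblasts cultured from embryos, grown in serum-containing medium with 2-mercaptoethanol. Erastin blocks cystine import through the cystine/glutamate antiporter and can bring on ferroptosis, in which cells die with peroxidised membrane lipids in an iron-dependent way. Each group had 3 libraries of ribosomal RNA-depleted total RNA, and both share the same single time point. No label says that libraries of a group came from separate cell preparations, so the p-values measure the spread between these libraries, which may be technical.

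Kinesins are motor proteins that use ATP to move along microtubules or to take microtubule ends apart. One set of them builds the mitotic spindle, moves chromosomes and completes cytokinesis, and is made mainly by dividing cells in the late phases of the cell cycle. Another set carries vesicles, mitochondria, lysosomes and ciliary cargo, and works in cells whether or not they divide. Fibroblasts in culture use both sets, and some further kinesins work in cilia or in Hedgehog and Wnt signalling.

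Library totals ran from 13333911 to 20509970 counts, and 3 counts, used as the floor of detection, were worth 0.14 to 0.234 CPM (counts scaled by library size with TMM factors). The biological coefficient of variation between libraries was 15.1%. DMSO replicate 3 stood apart from DMSO replicates 1 and 2 on the second principal component, at −43.94 against 30.55 and 19.65. All 9 fibroblast markers had reads in every library, with summed levels of 28500 to 29700 CPM in DMSO and 16800 to 18700 CPM in erastin libraries, and 8 of the 9 were lower with erastin. Summed epithelial markers lay between 2 and 3.17 CPM over all libraries and macrophage and blood markers between 17.9 and 48.6 CPM. Endothelial markers summed to 2.16 to 4.76 CPM in DMSO and 7.6 to 9.85 CPM in erastin libraries, and skeletal muscle markers, nearly all Des, to 35.5 to 45.3 and 65 to 68.4 CPM. The part of other cell types in the kinesin values was not tested. In bulk RNA, fewer cells of a kind (for example, fewer dividing cells) and less RNA per cell cannot be told apart.

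Mitotic kinesins were lower and most called transport kinesins were higher after erastin. Of the 43 genes, 37 passed the filter on low counts, and 16 of them fell and 10 rose (edgeR's quasi-likelihood test, Benjamini-Hochberg adjusted p under 0.05 over 14000 genes). Over all 14000 genes the same rule called 43.1%, with 21.5% lower and 21.6% higher. Of the 37 tested members, 27 (73%) had groups that did not overlap in CPM, against 52.5% of all genes tested. All 26 called members were among them, as were 96.6% of all called genes. Of the 37, 12 fell with a log2 fold change of −1 or less (7.16% of all genes did) and 2 rose with one of 1 or more (4.99% of all genes). By class, 11 of 13 tested mitotic kinesins fell and 0 rose, 2 of 16 tested transport kinesins fell and 8 rose, and 2 of 7 tested ciliary, signalling and other kinesins fell and 2 rose. Kif2a, which also acts at spindle poles, was counted with the other kinesins; placed with the mitotic ones, as its relatives Kif2b and Kif2c are, it makes the counts 11 lower and 1 higher. At an unadjusted p under 0.05 the edgeR count of mitotic kinesins that were higher was also 0. With DESeq2 the count at an adjusted p under 0.05 was 0 as well. The median log2 fold change was −2.13 over the tested mitotic and 0.38 over the tested transport kinesins, against −0.0014 over all genes. Without the Kifc genes the mitotic count was 10 of 11 and the transport counts were 1 lower and 8 higher of 15. Without DMSO replicate 3 the counts were again 11 mitotic lower, 2 transport lower and 8 transport higher.

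**Figure D1:**
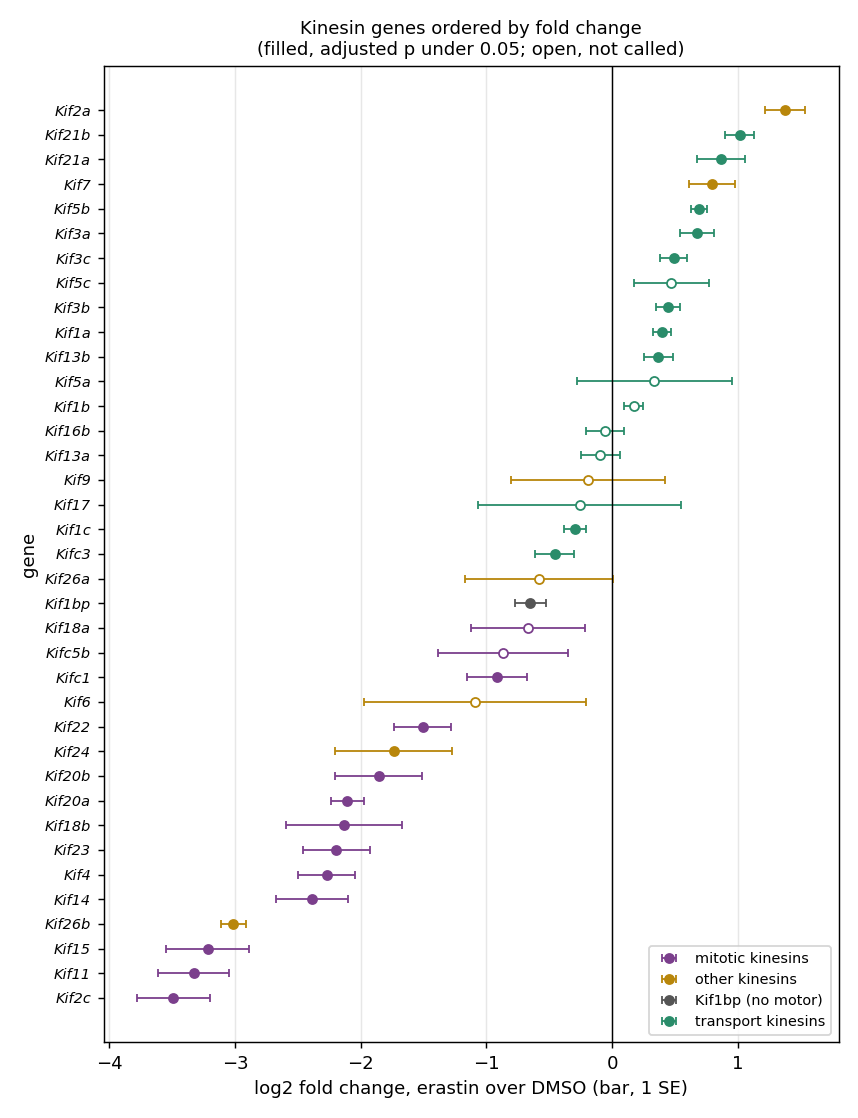
Log2 fold change of erastin over DMSO for the 37 tested members (horizontal axis), 1 gene per line and ordered by value, with bars of 1 SE; filled points passed the adjusted p threshold of 0.05. Mitotic kinesins fill most of the lower end, from −3.49 for Kif2c. Among them stand Kif26b at −3.01, Kif24 at −1.74 and Kif6, which was not called, at −1.09. Kif2a stands at the upper end with 1.38.

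Summed over their genes, the mitotic kinesins had 155.4, 178.8 and 174.4 CPM in DMSO replicates 1, 2 and 3. After erastin the sums were 41.81, 41.91 and 40.5 CPM. The groups were far apart, and the mean fell 4.09-fold, from 169.5 ± 12.4 to 41.4 ± 0.786 CPM (SD, n = 3 each). Transport kinesins summed to 1563, 1572 and 1722 CPM in DMSO and to 1951, 1947 and 1992 CPM in erastin libraries, also without overlap, and the ratio of the means was 1.21. Mitotic genes made up 8.08% to 9.04% of all kinesin CPM in DMSO and 1.88% to 1.98% in erastin libraries. These sums are not per length, so they describe reads and not molecules.

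Sequences around transcript starts of the mitotic members are shown because these genes moved together. RefSeq windows (GRCm38.p6, 250 bases before to 50 after a transcript start) were matched for 34 of the 43 members. The 9 without a window were Kif13b, Kif19a, Kif20a, Kif21b, Kif28, Kif5a, Kif5b, Kifc2 and Kifc3, and the shares below leave them out. In 12 of the 38 windows the transcript start was the RefSeq gene start. The windows were searched on both strands for the late cell cycle element known as CHR, spelled TTTGAA, for the CCAAT box, spelled CCAAT, and for an E2F motif spelled TTTCCCGC or TTTGGCGC. TTTGAA was present in 11 of 13 mitotic kinesin windows (84.6%), in 1 of 13 transport kinesin windows (7.69%) and in 2 of 11 windows of other kinesins (18.2%), against 17.9% of all 32851 windows. CCAAT was present in 9 of the 13 mitotic windows (69.2%) and in 37.4% of all windows. The E2F spellings were present in the mitotic windows of Kif15 and Kif18a only, and in 1.56% of all windows. Stretches of 90 bases are printed 5′ to 3′ on the gene's strand for 3 mitotic genes that fell (Kif11, Kif2c and Kif23), for Kif26b, which fell without being a mitotic kinesin, and for the transport gene Kif3b, which rose. They were chosen to lie outside all GENCODE M21 exons. The Kif2c stretch lies inside the span of its gene, between exons, and not before the gene. Capitals mark the matches and lower case the rest. They lie at chr19:37376292-37376381 (Kif11, plus strand), chr4:117178803-117178892 (Kif2c, minus), chr9:61946792-61946881 (Kif23, minus), chr1:178529035-178529124 (Kif26b, plus) and chr2:153291323-153291412 (Kif3b, plus).
Kif11: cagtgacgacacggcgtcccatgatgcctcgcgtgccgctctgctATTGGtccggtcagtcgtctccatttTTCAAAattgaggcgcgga
Kif2c: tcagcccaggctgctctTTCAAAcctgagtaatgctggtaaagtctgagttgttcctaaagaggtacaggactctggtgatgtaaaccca
Kif23: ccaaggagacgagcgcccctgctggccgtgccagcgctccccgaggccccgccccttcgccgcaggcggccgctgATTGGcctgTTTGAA
Kif26b: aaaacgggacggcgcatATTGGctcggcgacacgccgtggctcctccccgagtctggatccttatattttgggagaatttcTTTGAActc
Kif3b: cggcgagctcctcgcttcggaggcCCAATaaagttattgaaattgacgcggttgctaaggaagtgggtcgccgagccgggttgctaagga

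Positions are counted from the RefSeq transcript start of the window, with 0 for the first transcribed base, and this start can differ from the GENCODE gene start given with the genes. The TTTGAA match began at −19 in Kif11 and at −103 in Kif2c, on the opposite strand in both, and at 2 in Kif23, on its own strand. Kif26b has TTTGAA on its own strand at −9 and an opposite-strand CCAAT at −73, and the Kif3b stretch holds CCAAT alone. Of the 11 mitotic kinesins with TTTGAA, 6 have a match outside the GENCODE exons of their own gene, and in the others the matches overlap an exon. Outside exons does not mean before the gene: the matches of Kif2c and Kif14 lie inside the gene's span, past its GENCODE start. All 10 mitotic kinesins that fell and have a window hold TTTGAA, and 7 of them hold CCAAT. The CHR spelling was also found in Kifc5b, which was not called, and in a window of Kif1a, which rose, and it was not found in the windows of Kif18a and Kif2b. That Kif1a window lies inside its gene, and the other Kif1a window does not hold the spelling. A match describes letters in this window and is not evidence of a bound factor.

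Among the motors that set up the bipolar spindle, Kif11 (Eg5, which slides antiparallel microtubules to push the poles apart; ENSMUSG00000012443.3, chromosome 19, 37376403 to 37421859) had 15.9, 24.2 and 16.6 CPM in DMSO replicates 1, 2 and 3. In the erastin libraries it had 2.61, 1.86 and 1.14 CPM. The lowest DMSO value was several times the highest erastin value, and the log2 fold change was −3.33 ± 0.28 (SE), with an edgeR adjusted p of 3.47e-07. Kif15 (which can keep the spindle bipolar beside Kif11; ENSMUSG00000036768.5, chromosome 9, 122951046 to 123018733) had 8.24, 8.26 and 13.1 CPM in DMSO and 1.21, 0.778 and 1.14 CPM in erastin libraries. DMSO replicate 3 was the highest library, and the groups did not overlap. The log2 fold change of Kif15 was −3.22 ± 0.33 (edgeR adjusted p = 2.05e-06). Kifc1 (HSET, a minus-end motor that gathers spindle poles; ENSMUSG00000079553.6) had 10.8, 10.5 and 18.2 CPM in DMSO and 6.01, 8.02 and 6.84 CPM in erastin libraries. Its fall was smaller than that of the other called mitotic genes, at −0.92 ± 0.24 (edgeR adjusted p = 0.0064), with DMSO replicate 3 again the highest. Kifc5b, a near-identical copy of Kifc1, had means of 2.53 and 1.38 CPM in DMSO and erastin, with a log2 fold change of −0.87 ± 0.51 that did not pass (edgeR adjusted p = 0.192). How reads were divided between Kifc1 and Kifc5b is uncertain.

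Kif2c (MCAK, which removes tubulin from microtubule ends at kinetochores; ENSMUSG00000028678.9, chromosome 4, 117159639 to 117182639) had the lowest log2 fold change of the family. It had 11.7, 11.3 and 11.4 CPM in DMSO and 0.978, 1.32 and 0.778 CPM in erastin libraries. DMSO libraries were close together and erastin libraries were all below them, a fall from 11.5 ± 0.206 to 1.02 ± 0.273 CPM (SD, n = 3 each). The log2 fold change was −3.49 ± 0.29 (SE), with an edgeR adjusted p of 2.53e-07. Kif18b (which trims astral microtubules) had 5.97, 5.21 and 6.69 CPM in DMSO and 2.47, 1.02 and 0.518 CPM in erastin libraries. Erastin replicate 1 was the highest of its group but still below every DMSO library, and the log2 fold change was −2.13 ± 0.46 (edgeR adjusted p = 0.00178). Without erastin replicate 1 it was −2.96 (edgeR adjusted p = 0.000398). Kif18a (which dampens chromosome oscillation at metaphase) had 4.31, 2.55 and 5.92 CPM in DMSO and 1.21, 2.75 and 4.04 CPM in erastin libraries. These groups overlapped, and the log2 fold change of −0.67 had a 95% interval from −1.55 to 0.22 (edgeR adjusted p = 0.256). Kif2b, a relative of Kif2c at kinetochores, had 2 reads in DMSO replicate 2, 0 in the other libraries, and was not tested.

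Kif4 and Kif22 are chromokinesins, motors that bind chromosome arms. Kif4 (which also shortens the central spindle at anaphase; ENSMUSG00000034311.3, chromosome X, 100625737 to 100727214) had 14.8, 14.7 and 17.6 CPM in DMSO and 3.72, 2.33 and 3.63 CPM in erastin libraries. The groups were well separated, with a log2 fold change of −2.27 ± 0.23 (edgeR adjusted p = 1.8e-06). Kif22 (Kid, which pushes chromosome arms from the poles; ENSMUSG00000030677.7, chromosome 7, 127027729 to 127042471) had 12.5, 16.6 and 12.9 CPM in DMSO and 3.77, 5.03 and 6.01 CPM in erastin libraries. Every DMSO library was above every erastin library, and the log2 fold change was −1.51 ± 0.23 (edgeR adjusted p = 8.76e-05). Processed pseudogenes of both genes, Kif4-ps and Kif22-ps, had at most 1 read in any library.

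The cytokinesis motors fell as well, by 1.86 to 2.39 on the log2 scale. Kif20a (which brings the chromosomal passenger complex to the central spindle; ENSMUSG00000003779.11) had 43.9, 47.1 and 37.5 CPM in DMSO and 10.4, 10.2 and 9.33 CPM in erastin libraries. It was the mitotic kinesin with the highest level per length, 9.88 CPM per kb of exon in DMSO and 2.30 CPM per kb after erastin. Its log2 fold change was −2.11 ± 0.13, with the smallest adjusted p of the mitotic class in edgeR, 2.09e-08. Kif23 (the motor subunit of centralspindlin; ENSMUSG00000032254.9) had 12.5, 13.1 and 10.7 CPM in DMSO and 3.17, 3.05 and 1.71 CPM in erastin libraries, which do not overlap. Kif23 had a log2 fold change of −2.19 ± 0.27 (edgeR adjusted p = 1.23e-05). Kif14 (which works with citron kinase at the midbody; ENSMUSG00000041498.9) had 8.46, 9.7 and 10.7 CPM in DMSO and 2.19, 1.32 and 1.97 CPM in erastin libraries. The separation was again complete, with a log2 fold change of −2.39 ± 0.29 (edgeR adjusted p = 1.06e-05). Kif20b (needed for abscission) had 5.14, 13 and 9.19 CPM in DMSO and 2.33, 3.29 and 1.97 CPM in erastin libraries. DMSO libraries of Kif20b were widely spread but all higher, and the log2 fold change was −1.86 ± 0.34 (edgeR adjusted p = 0.000531).

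**Figure D2:**
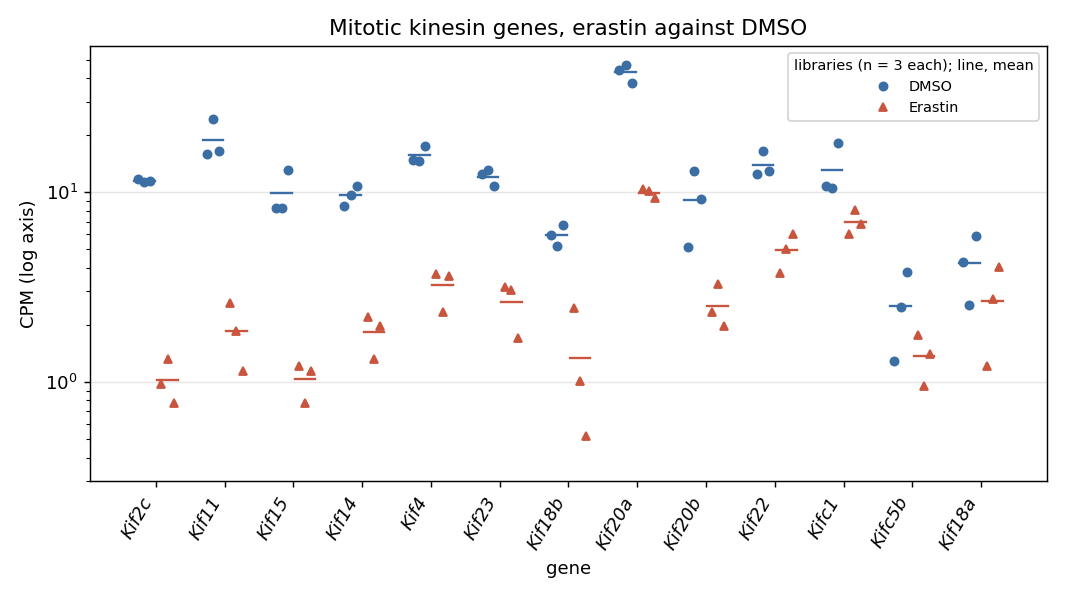
CPM on a log axis for the 13 tested mitotic kinesins, 1 point per library (3 DMSO circles and 3 erastin triangles) with a line at each group mean. The points of the 11 called genes separate completely, and those of Kif18a and Kifc5b overlap.

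The cofactors of these motors were examined in a list of 19 known partners, which was chosen with earlier results of these data known. The list also holds Cenpe, itself a kinesin. All 19 were tested, 17 (89.5%) fell and 0 rose, with a median log2 fold change of −1.98. Over all genes tested, 21.5% fell and 21.6% rose, with a median of −0.0014. Prc1 (which bundles the midzone microtubules to which Kif4 is recruited) had 42.5, 42.1 and 41.7 CPM in DMSO and 14.6, 9.82 and 10.8 CPM in erastin libraries. The spread within DMSO was small, and the log2 fold change of Prc1 was −1.83 ± 0.15 (edgeR adjusted p = 2e-07). Racgap1 (the other centralspindlin subunit, bound to Kif23) had 36.9, 33.7 and 34.6 CPM in DMSO and 9.87, 10.2 and 9.33 CPM in erastin libraries. The groups lay far apart, with a log2 fold change of −1.84 ± 0.13 (edgeR adjusted p = 6.58e-08). Anln (anillin, a scaffold of the contractile ring) had 63.4, 67.2 and 62.9 CPM in DMSO and 17.3, 13.5 and 18.1 CPM in erastin libraries. Its log2 fold change was −1.98 ± 0.12, with the smallest adjusted p of the list (edgeR, 1.33e-08).

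Cenpe, a kinetochore kinesin whose symbol the rule does not match, had 19.7, 26.1 and 27.7 CPM in DMSO and 6.47, 5.27 and 6.48 CPM in erastin libraries. No library crossed between the groups, and the log2 fold change was −2.01 ± 0.18 (edgeR adjusted p = 6.21e-07). Tpx2 (which binds Kif11 and activates Aurora A) differed far less, with 51.1, 48.6 and 51 CPM in DMSO and 43.3, 44.8 and 39.3 CPM in erastin libraries. Although these libraries did not overlap, the log2 fold change of −0.24 did not pass (edgeR adjusted p = 0.057), and it did pass with upper-quartile factors (0.0231) and with a GC and length offset (0.0219). Ckap5, a microtubule polymerase and the other gene of the list that was not called, was at −0.049 (edgeR adjusted p = 0.705).

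Transport kinesins are ordered here by their level per length. In DMSO, Kif1c had 57.5 CPM per kb of exon, Kif1a 48.0, Kif5b 35.8 and Kif1b 11.3. After erastin, Kif1a had 63.1 CPM per kb, Kif5b 57.8, Kif1c 46.8 and Kif1b 12.7. The next in order, Kif3b, had 8.41 CPM per kb in DMSO and 11.4 after erastin. Exon lengths came from GENCODE M21 and may differ from those behind the counts.

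Kif5b (the ubiquitous heavy chain of conventional kinesin, which moves mitochondria and lysosomes; ENSMUSG00000006740.9) had 280, 293 and 284 CPM in DMSO and 462, 459 and 463 CPM in erastin libraries. Both groups were tight, and the mean rose from 286 ± 6.81 to 461 ± 2.18 CPM (SD, n = 3 each). Its log2 fold change was 0.69 ± 0.065 (SE), with the smallest adjusted p among transport kinesins in edgeR, 8.41e-07. The neuronal heavy chains did not pass: Kif5c was at 0.47 ± 0.30, from means of 5.69 and 7.93 CPM (edgeR adjusted p = 0.221), and Kif5a at 0.34 ± 0.62, under 1 CPM in both groups' means (adjusted p = 0.692). Kif21b (a motor that also restrains microtubule growth; ENSMUSG00000041642.14, chromosome 1, 136131389 to 136177998) had 25.8, 34.9 and 28.8 CPM in DMSO and 58.9, 62 and 60.4 CPM in erastin libraries. The erastin libraries clustered above all DMSO libraries, and the rise of 1.01 ± 0.11 was the largest among the tested transport kinesins (edgeR adjusted p = 5.24e-06). Its relative Kif21a (ENSMUSG00000022629.12) had 10.3, 7.76 and 12.7 CPM in DMSO and 17.2, 20.5 and 18.1 CPM in erastin libraries. It too was higher in every erastin library, at 0.87 ± 0.19 (edgeR adjusted p = 0.00191).

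Kif1a, best known for carrying synaptic vesicle precursors in axons (ENSMUSG00000014602.11, chromosome 1, 93015464 to 93101951), had 430, 424 and 489 CPM in DMSO and 577, 580 and 607 CPM in erastin libraries. The groups did not overlap, and the log2 fold change was 0.39 ± 0.073 (edgeR adjusted p = 0.000475). The 6 neuronal markers summed to 71.8 to 101 CPM in DMSO and 54.4 to 61.4 CPM in erastin libraries, and Tubb3 and Map2 alone had reads in every library. Tubb3 fell from a mean of 67.0 to 40.2 CPM (edgeR adjusted p = 0.00032), and Map2 had means of 16.2 and 16.9 CPM (edgeR adjusted p = 0.794). Snap25 had 1 read in all, and Rbfox3, Nefl and Syp had at most 8 reads in a library. Kif1c (linked to Golgi traffic and to podosomes; ENSMUSG00000020821.13, chromosome 11, 70700548 to 70731964), of the same subfamily, had 383, 390 and 482 CPM in DMSO and 345, 345 and 332 CPM in erastin libraries. All erastin libraries were lower, with a log2 fold change of −0.30 ± 0.086 (edgeR adjusted p = 0.0117), and DMSO replicate 3 was the highest. Without DMSO replicate 3 the log2 fold change of Kif1c was −0.184, and its edgeR adjusted p, 0.05 after rounding, lay at the edge of the threshold. Kif1b (which carries mitochondria and synaptic vesicle precursors) had means of 198 ± 13.5 and 223 ± 9.78 CPM without overlap of the libraries. Its log2 fold change of 0.17 did not pass (edgeR adjusted p = 0.086), and with total count scaling it did, at 0.23 (adjusted p = 0.034).

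The motor subunits of the ciliary and vesicular kinesin that carries intraflagellar transport rose. Kif3a (ENSMUSG00000018395.15, chromosome 11, 53567379 to 53601967) had 26.4, 23.8 and 22.7 CPM in DMSO and 35.7, 34.1 and 46.6 CPM in erastin libraries. Erastin replicate 3 was the highest, the groups did not overlap, and the log2 fold change was 0.67 ± 0.14 (edgeR adjusted p = 0.000982). Kif3b (ENSMUSG00000027475.9, chromosome 2, 153291413 to 153333390), its usual dimer partner, had 46.2, 50.5 and 45.3 CPM in DMSO and 69.5, 60.9 and 62.7 CPM in erastin libraries. This separation gave 0.44 ± 0.095 (edgeR adjusted p = 0.00159). Kif3c (an alternative partner of Kif3a; ENSMUSG00000020668.9) had 30.2, 26.1 and 28.5 CPM in DMSO and 40, 39.3 and 39.5 CPM in erastin libraries. Its erastin libraries were nearly equal, and it rose by 0.49 ± 0.11 (edgeR adjusted p = 0.00202). Kifap3, the non-motor subunit that joins the Kif3a and Kif3b dimer, had 53.7, 61.6 and 52.1 CPM in DMSO and 41.3, 40.2 and 43.2 CPM in erastin libraries. Unlike the motor subunits it was lower in every erastin library, at −0.42 ± 0.099 (edgeR adjusted p = 0.00298).

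The remaining transport kinesins differed little or had few reads. Kif13b rose by 0.37 ± 0.11 (edgeR adjusted p = 0.0157), from 27.7 ± 2.00 to 35.8 ± 1.64 CPM (SD, n = 3 each). Its call was lost without DMSO replicate 1 (adjusted p = 0.0619) and without erastin replicate 2 (0.0599). Kifc3, a minus-end motor, had 37.5, 25.8 and 32.9 CPM in DMSO and 19.8, 25.6 and 24.6 CPM in erastin libraries. The highest erastin library nearly reached the lowest DMSO library, and the fall of 0.46 ± 0.15 (edgeR adjusted p = 0.0247) did not pass with the GC and length offset (adjusted p = 0.179), without DMSO replicate 1 (0.131) or without erastin replicate 1 (0.13). Kif13a (which carries recycling endosomes) was at −0.094 ± 0.15 and the endosomal Kif16b at −0.059 ± 0.15, with edgeR adjusted p values of 0.657 and 0.783. Kif17 had under 0.6 CPM in both means and a log2 fold change of −0.26 ± 0.81 (edgeR adjusted p = 0.824). Kifc2 was not tested, with 6, 6 and 5 reads in DMSO and 24, 8 and 14 reads in erastin libraries.

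**Figure D3:**
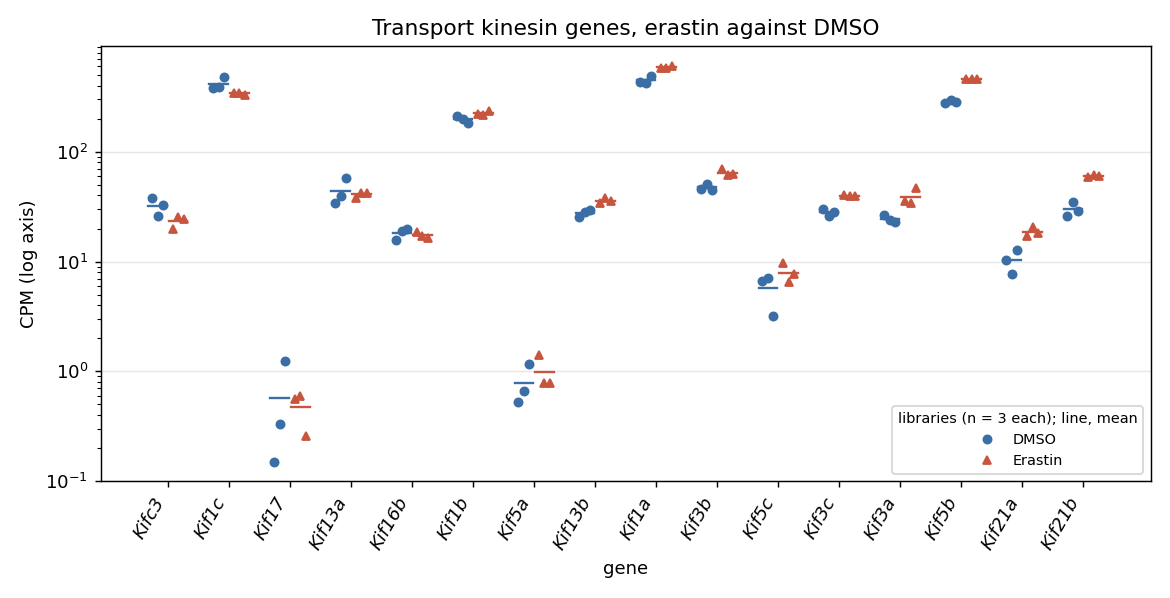
CPM on a log axis for the 16 tested transport kinesins, 1 point per library (3 DMSO circles and 3 erastin triangles) with a line at each group mean. Kif5b, Kif21b and the Kif3 genes have all erastin points above all DMSO points, and Kif1c and Kifc3 have them below.

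Light chains, adaptors and cargo linkers of the transport kinesins (18 of 19 genes tested) gave 5 higher and 1 lower, the latter Kifap3, with a median log2 fold change of 0.074. The share that rose, 27.8%, was close to the 21.6% of all genes, and with upper-quartile factors the counts were 5 and 2. Arl8b and Arl8a are lysosomal small GTPases that link lysosomes to kinesins. Arl8b had 123, 127 and 116 CPM in DMSO and 185, 183 and 171 CPM in erastin libraries. Every erastin library was above every DMSO library, and the log2 fold change was 0.56 ± 0.076 (edgeR adjusted p = 3.32e-05). Arl8a had 106, 99.9 and 104 CPM in DMSO and 144, 141 and 138 CPM in erastin libraries, at 0.45 ± 0.076 (edgeR adjusted p = 0.000235). Spag9, a scaffold that binds the kinesin light chains, rose by 0.42 ± 0.078 (edgeR adjusted p = 0.000462), and Zfyve27 (protrudin) by 0.44 ± 0.11 (edgeR adjusted p = 0.00501). Among the light chains, which couple conventional kinesin to cargo, Klc2 had 21.8, 16.2 and 19.5 CPM in DMSO and 25.3, 30.2 and 26.6 CPM in erastin libraries. It rose by 0.51 ± 0.14 (edgeR adjusted p = 0.0095), a call lost without DMSO replicate 2 (adjusted p = 0.0543). The abundant Klc1, at 126 ± 0.328 and 131 ± 2.69 CPM, was at 0.060 ± 0.074 (edgeR adjusted p = 0.545; 0.0377 with the GC and length offset). Klc3 and Klc4 were at 0.089 and −0.022, with edgeR adjusted p values of 0.795 and 0.934.

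**Figure D4:**
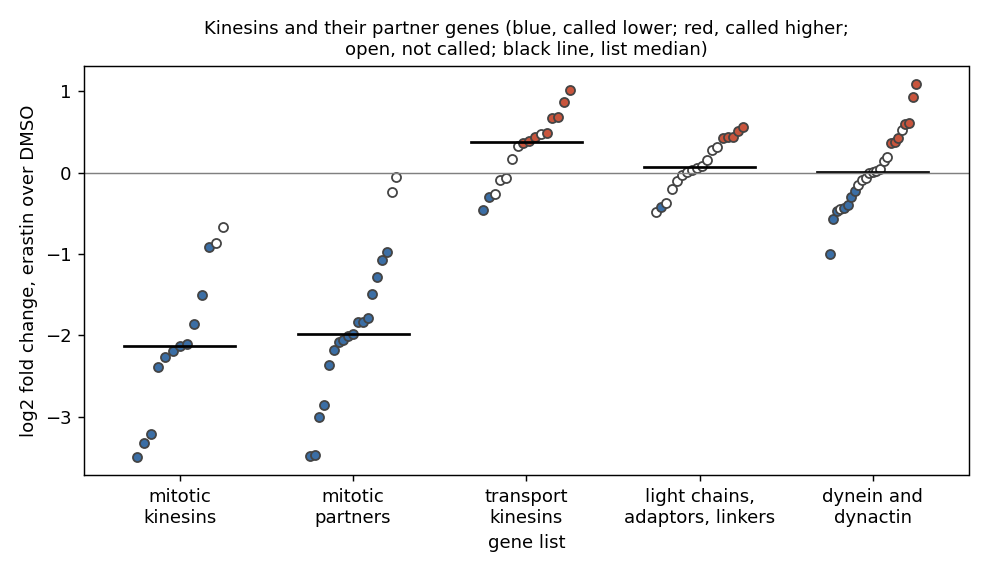
Log2 fold change of erastin over DMSO (vertical axis) for the tested mitotic and transport kinesins and the genes of 3 partner lists, 1 point per gene, blue for called lower, red for called higher, open for not called, with a black line at each list's median. Mitotic kinesins and their 19 partners lie below 0, with medians of −2.13 and −1.98, and the other lists spread on both sides of 0.

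Among the ciliary, signalling and other kinesins, Kif26b had the smallest adjusted p of all members. Kif26b is an atypical kinesin whose protein is a target of Wnt5a and Ror signalling (ENSMUSG00000026494.8, chromosome 1, 178529125 to 178939200). It had 152, 168 and 166 CPM in DMSO and 17.4, 21.3 and 21.6 CPM in erastin libraries. The mean was 8.07-fold lower after erastin by the fitted fold change, from 162 ± 8.79 to 20.1 ± 2.33 CPM (SD, n = 3 each), with a log2 value of −3.01 ± 0.099 (SE) and an edgeR adjusted p of 9.24e-11. Per length, it went from 11.0 CPM per kb, close to Kif1b, to 1.37 CPM per kb. Its relative Kif26a was scarce, at means of 1.42 and 0.931 CPM, and did not pass at −0.58 ± 0.59 (edgeR adjusted p = 0.455).

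Kif2a (which depolymerises microtubules at spindle poles, in axons and at cilia; ENSMUSG00000021693.15, chromosome 13, 106958996 to 107022126) went the opposite way from its relative Kif2c. It had 37.5, 41.5 and 23.4 CPM in DMSO and 97.9, 91.8 and 77.2 CPM in erastin libraries. DMSO replicate 3 was the lowest library and all erastin libraries were higher, a 2.59-fold rise from 34.1 ± 9.49 to 89.0 ± 10.6 CPM (SD, n = 3 each). The log2 fold change of 1.38 ± 0.16 was the highest of the tested members (edgeR adjusted p = 7.43e-06). Kif7 (a regulator of Hedgehog signalling at the ciliary tip; ENSMUSG00000050382.10) had 9.14, 7.93 and 9.81 CPM in DMSO and 17.2, 12.9 and 16.3 CPM in erastin libraries. All erastin libraries were higher, with a log2 fold change of 0.79 ± 0.19 (edgeR adjusted p = 0.00296). Kif24 (which restrains cilium formation at the mother centriole; ENSMUSG00000028438.12) had 3.33, 2.72 and 3.11 CPM in DMSO and 1.16, 0.718 and 0.83 CPM in erastin libraries. Its groups did not overlap, at −1.74 ± 0.46 (edgeR adjusted p = 0.0075).

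Kif6 and Kif9, found in motile cilia, were at −1.09 ± 0.88 and −0.19 ± 0.61 and did not pass (edgeR adjusted p values of 0.336 and 0.826). Kif27, a relative of Kif7, had 1, 6 and 0 reads in DMSO and 31, 6 and 25 reads in erastin libraries, and was not tested because it failed the filter on low counts. DMSO replicate 2 and erastin replicate 2 had equal counts of it. Without that filter Kif27 was called higher, at 2.78 (edgeR adjusted p = 0.0194), as with DESeq2, at 2.84 (adjusted p = 0.0354). It passed the filter in some fits that left out 1 library. There it was called without DMSO replicate 2 (edgeR adjusted p = 0.0164) and without erastin replicate 2 (0.0209). It was not called without DMSO replicate 1 (0.1) or without DMSO replicate 3 (0.0707). Kif19a had 0, 3 and 0 reads in DMSO and 10, 4 and 1 in erastin libraries, Kif28 at most 2 reads in a library, and Kif12 none in any. Neither Kif19a nor Kif28 was called without the filter (edgeR adjusted p = 0.459 and 0.927). Kif1bp, whose protein binds a subset of kinesins and keeps them from microtubules, had 34.8, 36.3 and 38.5 CPM in DMSO and 23.7, 20.6 and 25.5 CPM in erastin libraries. It was lower in every erastin library, at −0.65 ± 0.12 (edgeR adjusted p = 0.000502).

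**Figure D5:**
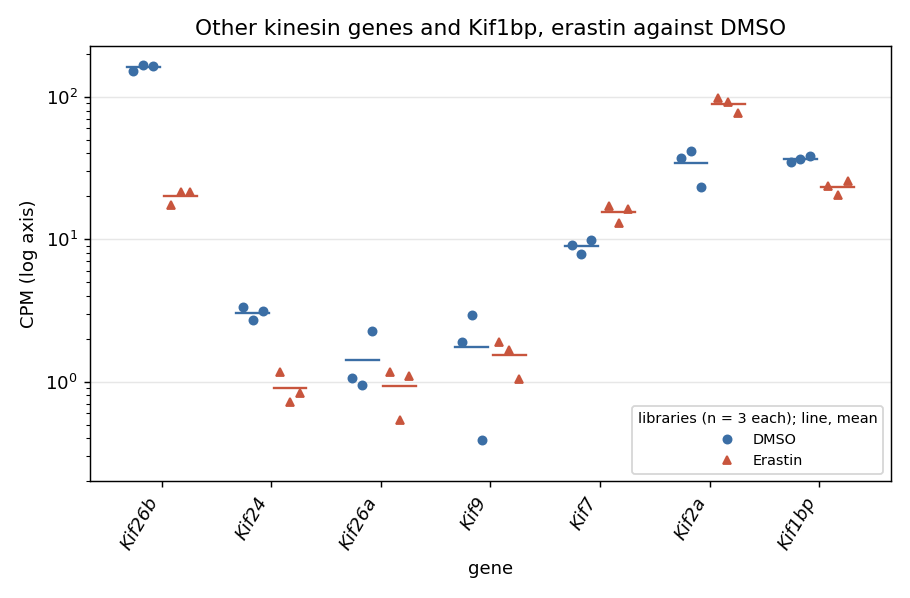
CPM on a log axis for 6 ciliary, signalling and other kinesins and for Kif1bp, 1 point per library (3 DMSO circles and 3 erastin triangles) with a line at each group mean; Kif6 is left out because 1 library had 0 reads. Kif26b, Kif24 and Kif1bp have all erastin points below DMSO, Kif7 and Kif2a have them above, and Kif26a and Kif9 overlap.

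Exons of several members overlap a gene on the opposite strand in GENCODE M21, among them Kif20a (Cdc23), Kif4 (Pdzd11), Kif2a (Dimt1), Kif7 (Ticrr) and Kif18a (Mettl15). Kif22, Kif26b, Kif5b, Kif3c and Kif1bp overlap antisense transcripts. Whether counting used the strand is not given in the sources used here, so reads of these pairs cannot be told apart.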

How the data were processed

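The table of read counts had 6 libraries, 3 with DMSO and 3 with erastin, with groups and replicate numbers from the sample titles. Ribosomal RNA-depleted, PCR-amplified libraries were, per the labels' protocols, sequenced on an Ion Proton instrument. The authors deposited whole-number counts without normalization. The submitters' processing notes name HTSeq 0.9.1, SAMtools and mm10; the aligner, annotation and strand setting are not given in the sources used here. Identifiers were matched without version to GENCODE M21 (42462 of 43346 rows had a symbol), and 0 columns were left unused.

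Counts were tested with edgeR 4.0.16 (limma 3.58.1, R 4.3.3): filterByExpr at its defaults (minimum count 10, minimum total 15), TMM factors, glmQLFit and glmQLFTest with treatment as the only term, and Benjamini-Hochberg adjustment over 14000 genes with a threshold of 0.05. SE values are of log2 fold changes, and SD values are over 3 libraries. The steps were tested on simulated data. The floor of 3 counts covers counting error only, since no molecular identifiers are described. Levels per length divide CPM by the union exon length.

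The members, classes and lists were chosen with earlier results of these data known. Values per library were planned for the 8 mitotic and the 8 transport kinesins with the smallest p-values and for called kinesins of the other class. They were also planned for Cenpe, Prc1, Racgap1, Tpx2, Kifap3, the light chains and the 3 genes with the smallest p-value of each partner list. Of these, Klc1, Klc3, Klc4 and Spag9 are given without values per library. Further genes were named after their values were seen. Alternatives were RLE, upper-quartile and total count scaling, no filter, the replicate block, a filter of 1 CPM in at least 3 libraries, an offset for GC content and length (mgcv 1.9.3), DESeq2 1.42.0, an adjusted p under 0.01 and leaving out each library; leaving out the Kifc genes and moving Kif2a to the mitotic class were added after seeing the data.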

Additional observations from a re-analysis of the deposited data

How the results depend on the processing

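The 11 mitotic kinesins called lower stayed 11 in every alternative run except that without the Kifc genes, where 10 of 11 were lower. With Kif2a among the mitotic kinesins, 1 mitotic kinesin was higher and the other kinesins called higher numbered 1. Leaving out each library in turn moved the mitotic median log2 fold change between −2.35 and −1.95 and the transport median between 0.366 and 0.474. The median of the other kinesins moved between −0.781 and −0.08 and the adaptor median between 0.0458 and 0.143. The number of transport kinesins called lower moved between 1 and 2. In the dynein and dynactin list, which also holds dynein regulators and adaptors, 4 to 7 genes were called lower, the fewest without erastin replicate 1. Transport kinesins called lower numbered 1 with the GC and length offset and 1 with that offset and the replicate block. They numbered 1 without the Kifc genes and 0 at an adjusted p under 0.01. At that threshold 4 genes of the dynein and dynactin list were called lower. Without the filter on low counts, with DESeq2, and without DMSO replicate 2 or erastin replicate 2, Kif27 made the other kinesins called higher 3. The median of the other kinesins was 0.112 without a filter and −0.184 with DESeq2. Adaptors called lower numbered 2 with upper-quartile factors and 2 with at least 1 CPM in 3 libraries. The adaptor median was 0.0207 with upper-quartile factors, 0.14 with total count scaling, 0.192 with the offset and 0.194 with the offset and block, and the dynein and dynactin median −0.0417, 0.077, 0.129 and 0.13. Upper-quartile factors and total count scaling moved the median of all genes to −0.055 and 0.065. The cause of the other changes was not tested.

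Of 549 alternative values for single members, 532 kept their direction and side of the threshold, 6 lost a call (Kifc3 and Kif13b), 1 gained one (Kif1b) and 10 changed sign; for 16 partners these were 229, 1, 4 and 6 of 240. Every sign change was in a gene that was not called. Leaving out 1 library at a time, the log2 fold change ran from −0.246 to 0.145 for Kif13a, −0.702 to 0.899 for Kif17, −0.655 to 0.431 for Kif9, −0.0112 to 0.711 for Kif5a, −0.0118 to 0.216 for Klc3 and −0.153 to 0.186 for Klc4. Further sign changes were Kif17 (0.0254 with the replicate block, 0.22 with the offset and block), Kif9 (0.068 and 0.0528), Kif16b (0.00849 with total count scaling) and Klc4 (0.0471 with total count scaling, 0.188 with the offset, 0.192 with the offset and block). Kif17, Kif9 and Kif5a rest on few reads.

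The labels give both groups the numbers 1 to 3 without saying what a number shares. Deviations from the group means correlated at 0.0401, 0.00379 and −0.0055 for same-numbered libraries. With 3 libraries per group, these values cannot decide whether a number marks a shared culture or day. The replicate block moved the calls over all genes from 6028 to 5882 and changed no kinesin call; the mitotic median was −2.22 with it.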

Other observations

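Cytoplasmic dynein moves cargo in the direction opposite to most kinesins, and dynactin is its activator. They were examined in a list of 28 genes that also held regulators and cargo adaptors of dynein. Of these genes 25 were tested, 7 were higher and 7 lower after erastin, with a median log2 fold change of 0.012. Each share, 28%, was near those of all genes (21.5% lower and 21.6% higher), and with total count scaling 10 were higher and 5 lower. The subunits Dync1li1 and Dctn4 were called higher, and the others called higher were the regulators and adaptors Ndel1, Pafah1b1, Hook3, Bicd2 and Bicd1. Those called lower were the subunits Dynlt3, Dynlrb1, Dynll1, Dynll2, Dctn6 and Actr1a and the regulator Nde1. Dync1li1 (a light intermediate chain that binds cargo adaptors) had 71.9, 78.4 and 65 CPM in DMSO and 148, 157 and 153 CPM in erastin libraries. All erastin libraries were higher, at 1.09 ± 0.086 (edgeR adjusted p = 1.72e-07). Its paralogue Dync1li2 was at 0.19 ± 0.081 and was not called (edgeR adjusted p = 0.0672), and the heavy chain Dync1h1 was at 0.15 ± 0.072 (edgeR adjusted p = 0.114). Dctn4, a dynactin subunit, had 105, 93.7 and 95.6 CPM in DMSO and 150, 143 and 153 CPM in erastin libraries, again without overlap, at 0.60 ± 0.080 (edgeR adjusted p = 2.53e-05).

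The dynein regulators Nde1 and Ndel1, close paralogues that bind Lis1, moved in opposite directions. Nde1, which is also used in mitosis, had 33.9, 33.2 and 29 CPM in DMSO and 15.7, 14.4 and 18 CPM in erastin libraries, at −0.999 ± 0.14 (edgeR adjusted p = 3.23e-05). Ndel1 had 101, 87.9 and 84.9 CPM in DMSO and 150, 135 and 134 CPM in erastin libraries, at 0.62 ± 0.088 (edgeR adjusted p = 5.32e-05). Neither gene's groups overlapped. Dync1li2, Dync1h1 and Ndel1 were chosen after their values were seen.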
